A study of Mus musculus with 2 samples.

Results

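The genes Map1a, Ddn, Nrgn, Hpca, Git1, Tuba4a, Mapk8ip2 and Shank1 encode cytoskeletal, calcium-handling and scaffold proteins of neuronal dendrites and synapses, and are 8 of the 32285 genes counted here. They were chosen because they had higher levels in adult hippocampus droplet barcodes poor in Malat1 than in barcodes rich in it. That contrast is therefore given as a description, with nothing read from its direction. Levels are counts of unique molecular identifiers (UMIs, each of which marks a captured RNA molecule) per 1000000 UMIs of a group of barcodes, written CPM. In the 317 barcodes with Malat1 under 1.5% of their UMIs, the 8 genes summed to 7465 CPM (7233 to 7702, the 95% interval by the exact Poisson method). In the 1292 barcodes with at least 1.5% they had 1161 (1144 to 1178).

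Malat1 is a long noncoding RNA that is retained in the nucleus, so its share of a droplet's RNA is a common sign of how much nuclear RNA the droplet caught. Most neuronal mRNAs stay near the cell body, but a set of them is carried into dendrites on microtubules and translated close to synapses. The hippocampus, whose dendrites lie in layers apart from the densely packed cell bodies, is a tissue in which dendritic mRNAs have been much studied. A preparation of nuclei can also hold cytoplasm that clings to nuclei, pieces of cell processes and free RNA. The droplet counts do not say which of these a barcode held.

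The counts came from 2 mouse libraries made by Slide-tags, a method that tags the nuclei of a frozen section of 20 μm with spatial barcodes and then sequences the RNA of single nuclei. The adult hippocampus library came from C57BL/6J tissue, taken from males at 56 days of age per the methods, and the E14 brain library from purchased C57BL/6J embryos at embryonic day 14, whose sex is not stated. The labels name no transgene or treatment for either. With 1 library per tissue there was no replicate, barcodes of a library are not replicates, and no test was made. All intervals, given at 95%, cover counting error only.

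After a limit of 5% mitochondrial UMIs, 1609 of 1661 adult barcodes and 9036 of 9037 E14 barcodes were kept, each with at least 500 UMIs, and 1 barcode sequence occurred in both libraries. The kept barcodes held 15346746 and 58923882 UMIs. Barcodes under 1.5% Malat1 made up 19.7% of the adult and 11.7% of the E14 library. They were shallow, with a median of 908 UMIs against 9071.5 in the adult and 1071 against 4664 in the E14 library. In the adult library mitochondrial genes gave 1.96% of their UMIs, against 0.148% above the limit. The library labelled hippocampus also held clusters with thalamic and cortical excitatory markers.

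The 8 genes are short, and their introns hold few stretches of A. By the GENCODE vM21 annotation of GRCm38 their lengths run from 5.64 kb for Tuba4a to 50.3 kb for Shank1, with a median of 10.5 kb. The median of the 10774 protein-coding genes with enough UMIs to compare was 31.7 kb. Introns made up a median of 56% of the 8 genes and 83.9% of those 10774. Capture of RNA with oligo-dT can start at a run of A inside an intron as well as at the poly(A) tail, so runs of at least 10 A on the sense strand were counted. Introns of 7 of the 8 genes held none and those of Shank1 held 1, against a median of 3. Of the 10774 genes, 2295 also held none. Gene length was not taken into account here, and runs in the exons of other genes were not compared.

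The runs of A that the 8 genes do hold, in introns or exons, are printed below as 30-base windows of the sense strand in RefSeq's GRCm38 sequence, 5′ to 3′, with the run in capitals. They are shown because they are the places inside these transcripts where oligo-dT could pair.

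Map1a, chr2:121309760-121309789, plus strand, exon, untranslated region, 1044 bases before the gene's end: cAAAAAAAAAAAAAAAAAAAAAAAAAAAAc

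Nrgn, chr9:37544901-37544930, minus strand, exon, untranslated region, 419 bases before the gene's end: agaaagaaagAAAAAAAAAAgcaaccacca

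Mapk8ip2, chr15:89462899-89462928, plus strand, exon, untranslated region, 1549 bases before the gene's end: gttttgttAAAAAAAAAAAAAggtgacttt

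Shank1, chr7:44319522-44319551, plus strand, intron, 41026 bases before the gene's end: agacAAAAAAAAAAAAAAAAAAAAAgaagg

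Shank1, chr7:44359808-44359837, plus strand, exon, untranslated region, 745 bases before the gene's end: ataaaaattAAAAAAAAAAAccctagaaca

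No such run was found in Ddn, Hpca, Git1 or Tuba4a. Of the 5 windows, 4 lay in exons within 2 kb of the gene's end, and the run in Shank1's intron lay far from it.

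Among the cytoskeletal genes, Map1a, whose protein binds and stabilises dendritic microtubules, had 2423 CPM in adult barcodes under 1.5% Malat1 (2292 to 2560) and 182 above. The ratio of these levels was 13.3 (12.5 to 14.2), which placed it at rank 9 of 11995 genes with at least 100 UMIs over both groups. Tuba4a, an alpha-tubulin, had 306 CPM in barcodes under the limit and 47.8 above, a ratio of 6.41 (5.36 to 7.61). In E14 the same barcode groups gave 35.7 and 19.3 CPM for Map1a, and 2.10 and 0.684 for Tuba4a, the last pair from 4 and 39 UMIs.

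Of the calcium-related genes, Nrgn encodes neurogranin, which holds calmodulin in dendritic spines, and Hpca encodes hippocalcin, a neuronal calcium sensor. Nrgn had 1367 CPM under the limit and 390 above in the adult library, a ratio of 3.50 (3.24 to 3.78). Hpca had 512 and 160, a ratio of 3.20 (2.81 to 3.63). These were the smallest ratios of the 8 genes, at ranks 966 and 1202. In E14 both were near the floor, at 4.20 CPM under the limit for each, and 2.75 for Nrgn and 3.42 for Hpca above it.

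Shank1 encodes a scaffold of the postsynaptic density, and Ddn encodes dendrin, a protein of dendrites and the postsynapse. Git1 encodes a scaffold that regulates Arf GTPases, and Mapk8ip2 a scaffold of the JNK pathway. Ddn had 1052 CPM under the limit and 84.6 above in the adult library, a ratio of 12.4 (11.2 to 13.8). The ratio was 8.16 for Git1 (6.67 to 9.91), 6.16 for Shank1 (5.65 to 6.71) and 4.92 for Mapk8ip2 (4.16 to 5.79). In E14, Ddn had 0 UMIs under the limit, where a count of 0 allows up to 3 UMIs, and 9 UMIs above it.

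**Figure D1:**
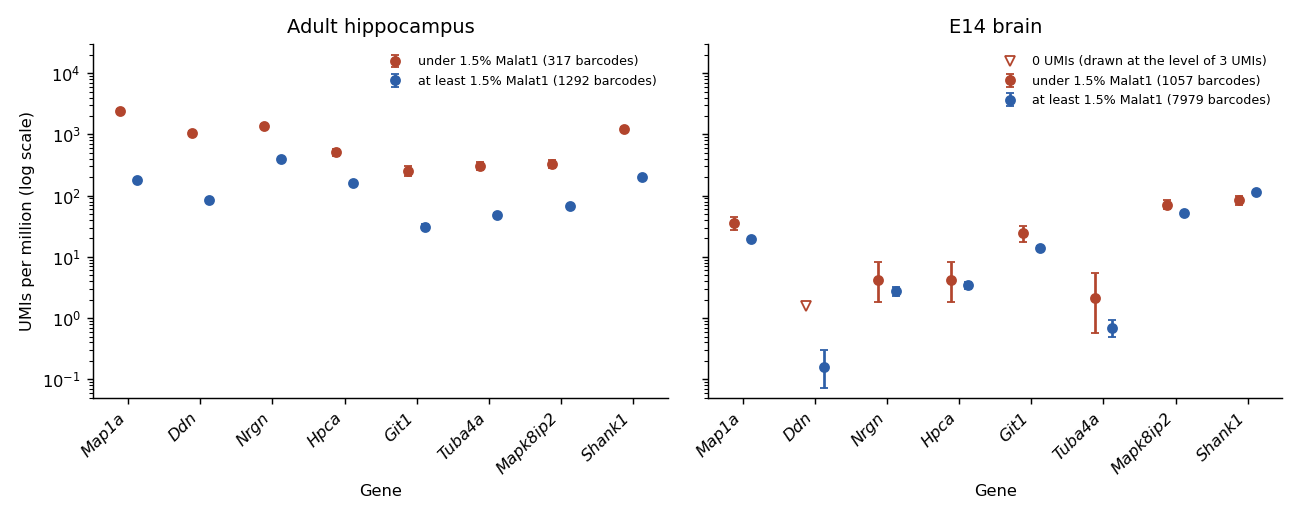
Level in CPM (log scale) of the 8 genes in barcodes under and at least 1.5% Malat1, for the adult hippocampus (left) and the E14 brain (right), with 95% exact Poisson intervals; an open triangle marks 0 UMIs, drawn at the level of 3 UMIs. In the adult library each gene lies higher in the 317 barcodes under the limit, by 3.20 to 13.3 times, and in E14 Map1a, Git1 and Mapk8ip2 lie higher under the limit, by 1.36 to 1.85 times, and Shank1 lower, while Ddn and Tuba4a rest on 0 and 4 UMIs there.

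All 8 genes were at least 2-fold higher under the limit in the adult library, where 22.4% of the 11995 genes compared were. The 8 genes were selected on this contrast, so the count is not a result. Their median ratio was 6.28, beside 0.889 over all genes compared. A barcode under the limit held on average 12.4 UMIs of the 8 genes and a barcode above it 13.3, although the barcodes above it were far deeper. When each barcode was thinned to 500 UMIs, 52.7% of barcodes under the limit (47.0 to 58.3) had a UMI of at least 3 of the 8 genes. The same held for 1.75% of neuron nuclei, the term used here for barcodes with at least 1.5% Malat1 in the CA1-like, CA3-like, dentate granule-like, thalamic-like and cortical excitatory-like clusters. Among oligodendrocyte-like barcodes above the limit it was 0.837%, although these do not lack all 8 genes: their Map1a, at 319.5 CPM, and Git1, at 62.0 CPM, lay above the 162.5 and 24.4 CPM of neuron nuclei. As deposited, the share in neuron nuclei was 92.6%, at a median depth of 13796 UMIs.

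Thinning showed the same order for each gene. Map1a had a UMI in 62.8% of thinned barcodes under the limit and in 11.4% of those above it. The shares were 44.5% and 9.06% for Shank1, 43.2% and 14.9% for Nrgn, and 40.1% and 4.18% for Ddn. They were 26.5% and 5.42% for Hpca. For Git1, Tuba4a and Mapk8ip2 they ran from 13.2% to 16.4% under the limit and from 2.24% to 2.55% above it.

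The summed level of the 8 genes stepped down at the limit and varied little above it, but single genes did vary there. In bins of Malat1 share, the summed level was 8494 CPM under 0.5%, 5432 from 0.5 to 1% and 5400 (4829 to 6021) from 1 to 1.5%. Just above the limit, from 1.5 to 2%, it was 1262, and it then ranged from 962 to 1275 in the 4 bins up to the highest shares. Ddn went from 194 CPM at 1.5 to 2% Malat1 to 40.6 (31.4 to 51.8) over 8%, and Map1a was at 303.5 and 134 CPM in these bins. Hpca was at 76.8 CPM from 1.5 to 2% and 196 over 8%. Nrgn was at 128 CPM from 1.5 to 2% and 422 from 5 to 8%, with 288 over 8%. Depth moved with these bins: the median was 1368.5 UMIs in the 24 barcodes just under the limit and 2678.5 in the 46 just above it. Mitochondrial genes gave 1.45% and 0.379% of the UMIs of those 2 bins.

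Among barcodes of 500 to 1500 UMIs the fall across the limit was less steep. There the summed level was 7279 CPM from 1 to 1.5% Malat1 in 13 barcodes, 4215 from 1.5 to 2% in 14 barcodes and 1748 from 2 to 3% in 9 barcodes. The ratio of the bins on either side of the limit was 4.28 over all depths (3.67 to 5.00) and 1.73 in this range (1.20 to 2.498). The ratio of all barcodes under the limit to all above it was 5.00 in this range (4.11 to 6.13), beside 6.43 over all depths (6.21 to 6.66). Of the 8 genes, 5 kept at least 100 UMIs in this range. All 5 were at least 2-fold higher under the limit, as were 62.5% of the 360 genes compared there. The count is not a result, since these barcodes are among those the genes were selected on. The 5 genes also reached 100 UMIs only through barcodes under the limit. Map1a had 528 UMIs under it and 33 above, and Hpca had 111 and 8. The ratio of 5.00 rests on 58 barcodes above the limit, with 108 UMIs of the 8 genes, and of these barcodes 3 were neuron nuclei.

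**Figure D2:**
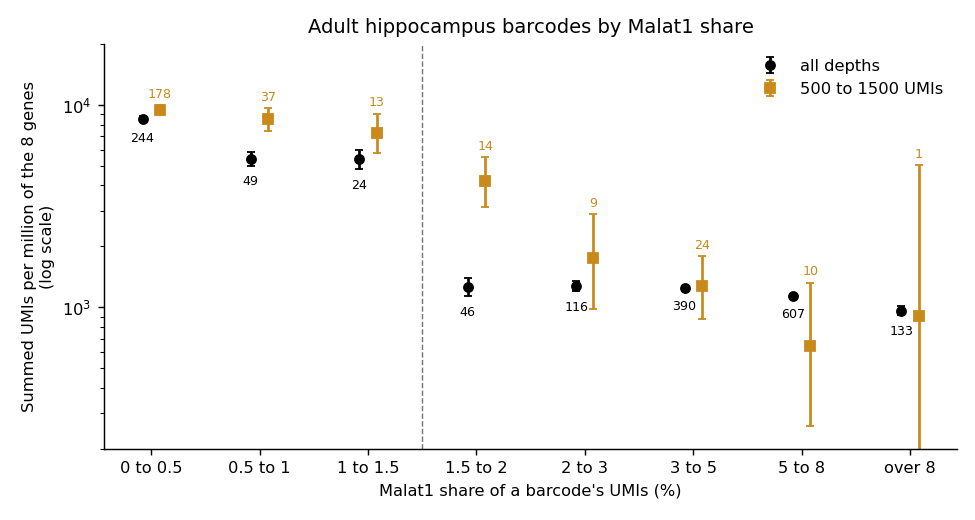
Summed CPM of the 8 genes (log scale) in adult barcodes grouped by the Malat1 share of their UMIs, over all depths (black) and for barcodes of 500 to 1500 UMIs (orange), with 95% exact Poisson intervals and the number of barcodes printed at each point. The dashed line is the limit of 1.5%: the black points step from 5400 to 1262 across it, and the orange points fall from 7279 to 4215.

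The barcodes under the limit were not spread over the cell classes. Clustering without the 8 genes, which would otherwise have given 4 of the 2000 variable genes, put 179 of the 317 in cluster 3, 74 in an astrocyte-like cluster and 52 in a thalamic-like cluster, each of few UMIs. Cluster 3, with 203 barcodes and a median of 822 UMIs, was left unnamed. Its 10 leading genes held 7 of the 8 genes. Their selection favours this, since 179 of its barcodes lay under the limit, and nothing is read from it. At a clustering resolution of 1.6, 90 of these 179 barcodes fell in a CA1-like cluster and 88 stayed unnamed.

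In cluster 3 under the limit, pooled over its barcodes, marker genes of several classes were present. All 8 CA1 markers had UMIs there, with a summed level of 767 CPM, and so did all 8 dentate granule markers, with 913, and all 8 astrocyte markers, with 3140. All 8 oligodendrocyte markers were also present, with 2300 CPM. Neurod6, a transcription factor gene of pyramidal neurons, had 216 CPM in cluster 3 and 227 in CA1-like nuclei. Of the dentate granule markers, C1ql2 had 99.0 CPM in cluster 3 and 116 in dentate granule-like nuclei, and Prox1 had 213 and 350. All 8 thalamic markers were present at a summed 304 CPM, although Slc17a6, the glutamate transporter gene of thalamic neurons, had 3 UMIs, and 7 of 8 inhibitory markers at 675 CPM, with Vip at 0. The part of these mixed markers in the levels of the 8 genes was not tested.

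Against neuron nuclei, cluster 3 under the limit had all 8 genes at least 2-fold higher, where 25.0% of 10586 genes were. This contrast shares barcodes with the one the genes were selected on. Ratios ran from 3.97 for Hpca (3.42 to 4.58) to 15.4 for Map1a (14.1 to 16.9) and 15.5 for Ddn (13.4 to 17.8), and the ratio of the summed levels was 6.98 (6.67 to 7.29). Against single classes the ratios differed by gene. Hpca in cluster 3 was 2.10 times its level in CA1-like nuclei (1.80 to 2.43) and 5.92 times its level in dentate granule-like nuclei (5.05 to 6.92). Shank1 was 3.68 times the CA1-like level (3.21 to 4.20) and 8.31 times the dentate granule-like level (7.22 to 9.54). Ddn was 20.4 times the CA1-like level, 10.7 times the dentate granule-like level and 32.0 times the CA3-like level, the last from 23 UMIs in the CA3-like nuclei.

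Thalamic-like barcodes gave a contrast within a class. Under the limit, all 8 thalamic markers had UMIs in the 52 barcodes, with a summed level of 8060 CPM, and Tcf7l2, a transcription factor gene of thalamic neurons, had 1316. The summed level of the 8 genes was 3080 CPM (2739 to 3452), against 625 (584 to 668) in the 70 thalamic-like barcodes above the limit, a ratio of 4.93 (4.30 to 5.63). Those under the limit all lay in cluster 9, of median depth 1045 UMIs, and most of those above it in cluster 7, of median depth 18954. Astrocyte markers in the 52 barcodes came to 2318 CPM, with all 8 present, and oligodendrocyte markers to 1973, with St18 at 0. Of the other neuron lists, CA3 markers came to 835 CPM with 6 of 8 present, and cortical excitatory markers to 825 with 5 present. Dentate granule markers came to 501 with 5 present. CA1 markers, at 52.2 CPM with 5 of 8 at 0, and inhibitory markers, at 41.8 with 4 present, were low. The part of these markers and of depth in the ratio was not tested. Of the 8 genes, 4 had at least 100 UMIs over both groups, Map1a, Tuba4a, Mapk8ip2 and Shank1. All of them were at least 2-fold higher, where 20.8% of 2931 genes were, but the 52 barcodes are among the 317 on which the genes were selected, so nothing is read from the count. Map1a had 1545 CPM under the limit and 200 above it, a ratio of 7.74 (6.30 to 9.49), and Shank1 had 679 and 218, a ratio of 3.11 (2.34 to 4.07). Ddn, Nrgn and Hpca, with 10, 14 and 7 UMIs under the limit, had ratios of 6.85 (2.88 to 15.2), 5.30 (2.65 to 10.0) and 8.39 (2.80 to 23.1).

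Pooled over barcodes, the astrocyte-like class had the highest summed level among named classes of at least 10 barcodes, under and above the limit. Its 76 barcodes under the limit had 9453 CPM of the 8 genes (8933 to 9996), and its 126 barcodes above the limit had 1650 (1569 to 1734), a ratio of 5.73 (5.31 to 6.18). Of those under the limit, 74 lay in cluster 6, of median depth 1151 UMIs, and most of those above it in cluster 5, of median depth 6340.5. Of the 6 genes with at least 100 UMIs over both groups, all were at least 2-fold higher under the limit, where 22.5% of 2334 genes were, and these 76 barcodes too are among those on which the genes were selected. Ddn had 1999 CPM under the limit and 367 above it, and Shank1 had 2191 and 455. Pooled over barcodes, both were thus higher in astrocyte-like barcodes above the limit than in any neuron class above it. In those classes Ddn reached 92.0 in dentate granule-like and Shank1 285 in CA1-like nuclei. The median over single barcodes kept this order for Ddn, at 82.7 CPM in astrocyte-like and 46.1 in dentate granule-like barcodes. It did not for Shank1, at 203.5 in astrocyte-like and 279 in CA1-like barcodes. Pooled Ddn above the limit was also over the 92.0 of dentate granule-like nuclei in 3 other groups. It was at 157 in oligodendrocyte precursor-like, 148 in endothelial-like and 496 in cluster 3 barcodes, with a median over single barcodes of 0 in each. Camk2a, a dendritic mRNA of excitatory neurons, had 9852 CPM in the astrocyte-like barcodes under the limit and 1226 in CA1-like nuclei. Markers of other cells in these 76 barcodes included all 8 oligodendrocyte markers, with 4328 CPM, and 7 of 8 CA1 markers, with 391 and Dcn at 0. Their part in the levels of the 8 genes was not tested. With 4000 variable genes, 2 barcodes of the class lay under the limit, and the ratio was 3.12 (2.10 to 4.48).

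The make-up of the 8 genes differed between these groups. Relative to thalamic-like barcodes under the limit, cluster 3 had Nrgn 14.3 times higher (8.47 to 26.4), Hpca 10.3 times (4.93 to 26.0) and Ddn 9.42 times (5.04 to 19.9), but Map1a 1.62 times (1.36 to 1.95) and Shank1 1.55 times (1.18 to 2.06). The neuron nuclei had a like contrast: Nrgn was at 587 CPM in dentate granule-like, 455 in CA1-like and 27.6 in thalamic-like nuclei, and Hpca at 128, 361 and 8.71. Map1a, at 187, 124 and 200, and Shank1, at 126, 285 and 218, varied far less. Relative to astrocyte-like barcodes under the limit, cluster 3 had Nrgn 2.42 times higher (1.97 to 2.99) and Hpca 1.86 times (1.37 to 2.57), while Ddn was at 0.492 of their level (0.413 to 0.585) and Shank1 at 0.479 (0.405 to 0.566). Git1 did not differ beyond counting error, at 0.983 (0.659 to 1.49).

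Across all adult groups of at least 10 barcodes, the summed level fell from astrocyte-like and cluster 3 barcodes under the limit to cluster 3 above it (3550, 2865 to 4349, in 24 barcodes) and thalamic-like barcodes under it, and the last pair did not differ beyond counting error. Astrocyte-like, CA1-like (1412, 1373 to 1452) and dentate granule-like (1266, 1237 to 1295) barcodes above the limit followed in this order, with intervals that did not overlap. These levels are pooled over barcodes. The median over single barcodes was 1079 CPM in astrocyte-like and 1224 in CA1-like barcodes above the limit, the other order. Endothelial-like barcodes had 823 CPM (735 to 918). Cortical excitatory-like nuclei at 1078 and CA3-like nuclei at 1071, both above them, could not be ordered, and neither could oligodendrocyte precursor-like, thalamic-like and oligodendrocyte-like barcodes at 654, 625 and 602. Inhibitory-like nuclei had 436 CPM (383 to 494), with Nrgn at 44.3 and Hpca at 16.0. Cluster 12, an unnamed cluster in which all 8 microglia markers were detected, had 346 CPM (234 to 494) and could not be ordered against them. Oligodendrocyte-like barcodes had 319 CPM of Map1a, above the 187 of dentate granule-like nuclei, but 4.77 of Mapk8ip2, from 4 UMIs.

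**Figure D3:**
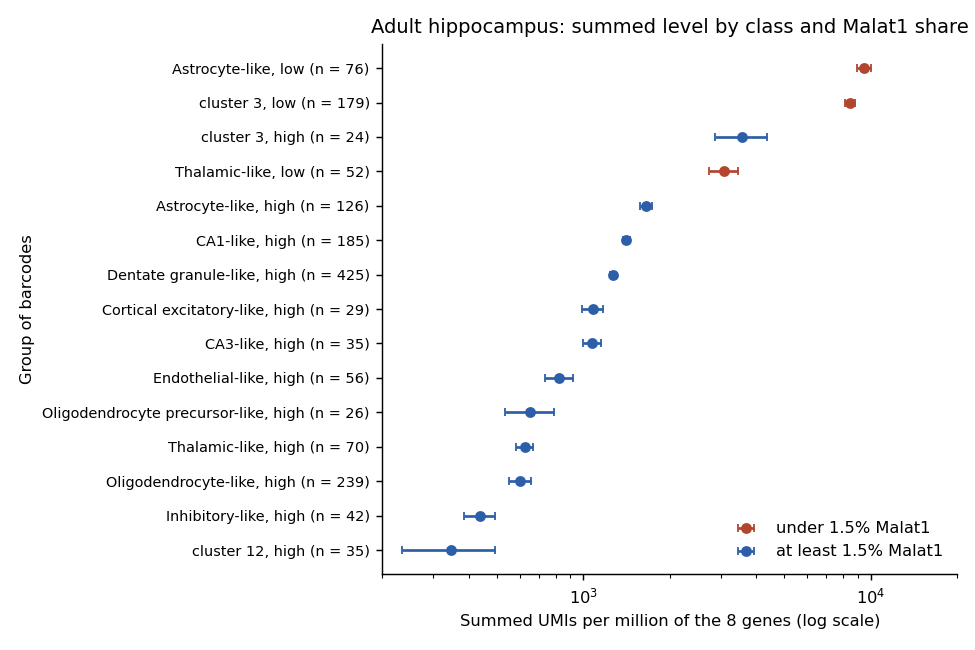
Summed CPM of the 8 genes (log scale) in each adult class or unnamed cluster with at least 10 barcodes, split at 1.5% Malat1, with 95% exact Poisson intervals and the number of barcodes. Groups under the limit, in red, lie at 9453, 8477 and 3080, and groups above it, in blue, run from 3550 in cluster 3 down to 346 in cluster 12.

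**Figure D4:**
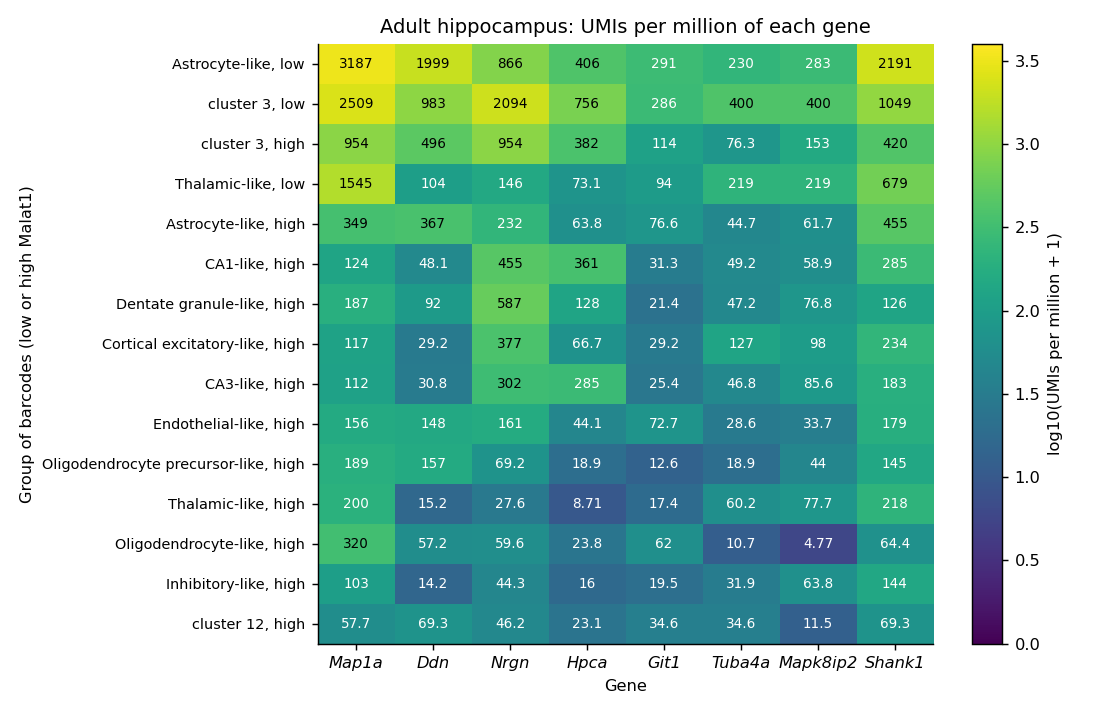
CPM of each of the 8 genes (columns) in the same adult groups (rows, in the order of the summed level), with the value printed in each cell and the colour showing log10(CPM + 1). Nrgn, at 27.6, and Hpca, at 8.71, are low in the thalamic-like row above the limit. Map1a, Ddn, Git1 and Shank1 are highest in the astrocyte-like row under the limit.

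Other genes of the same families did not move as a block. Of 40 relatives of the 8 genes, 38 had enough UMIs, of which 21 were at least 2-fold higher under the limit in the adult library, 4 were at least 2-fold lower and 13 lay between, with a median ratio of 2.16. Of all 11995 genes compared, 22.4% were at least 2-fold higher and 3731 were at least 2-fold lower. Hpcal4, a calcium sensor gene of 11.5 kb, had a ratio of 13.85 (11.9 to 16.1). Its relative Ncald, of 426 kb, had a ratio of 2.06 (1.83 to 2.30). Map2, the classic dendritic microtubule protein gene, had 4.95 (4.65 to 5.27), and Mapt, which encodes the axonal protein tau, had 1.04 (0.908 to 1.19). Among postsynaptic scaffold genes, Shank3, of 60.6 kb, had 2.09 (1.59 to 2.69), and Shank2, of 423 kb, had 0.445 (0.331 to 0.584). Dlg4, which encodes PSD-95, had 3.01, and Dlgap2, of 752 kb, had 0.127.

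Of 19 other mRNAs known from dendrites, 14 were at least 2-fold higher under the limit, where 22.4% of all genes compared were. Another 1 was at least 2-fold lower, and the median ratio was 4.76. Kif5a, which encodes a kinesin motor, had a ratio of 10.45 (9.57 to 11.4), Psd, which encodes an Arf6 exchange factor, 9.86 (8.96 to 10.9), and Camk2a 4.60 (4.414 to 4.798). Bdnf, at 1.28 (0.910 to 1.75), did not differ beyond counting error, and Cpeb1 was lower, at 0.191.

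Genes of other compartments and cells were higher too. Of 20 presynaptic and somatic cytosolic mRNAs, 17 were at least 2-fold higher and none was 2-fold lower, with a median ratio of 4.36. Of 12 mRNAs of glial processes, 11 were at least 2-fold higher, with a median of 5.68. The same held for 81 of 82 cytosolic ribosomal protein genes (median 6.88), 76 of 83 nuclear-encoded respiratory chain genes (4.99) and all 12 mitochondrially encoded genes compared (13.3). All 20 long neuronal genes were at least 2-fold lower, with a median ratio of 0.170, as were 9 of 10 nuclear long noncoding RNAs, a list that includes Malat1 itself. Peg13 was the exception, at 4.69. Over all 11995 genes compared, 22.4% were at least 2-fold higher and 3731 were at least 2-fold lower. The 10 largest ratios were those of mt-Nd5, mt-Nd4, mt-Co1, mt-Cytb, Hpcal4, mt-Nd6, Rasl10b, mt-Atp6, Map1a and mt-Co2.

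Gene length and ratio moved together across genes. The median ratio was 3.07 for the 822 protein-coding genes under 5 kb, 1.97 from 5 to 10 kb, 1.41 from 10 to 20 kb, 1.03 from 20 to 50 kb and 0.352 for the 891 genes of 200 kb or more. The 8 genes lay above the median of their length bin, which their selection favours. By runs of A in introns, the median fell from 2.20 for the 2295 genes with none to 0.25 for the 193 with 50 or more. Across these genes, which are not independent replicates, Spearman's rho of the ratio was -0.514 with gene length and -0.503 with the number of runs.

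**Figure D5:**
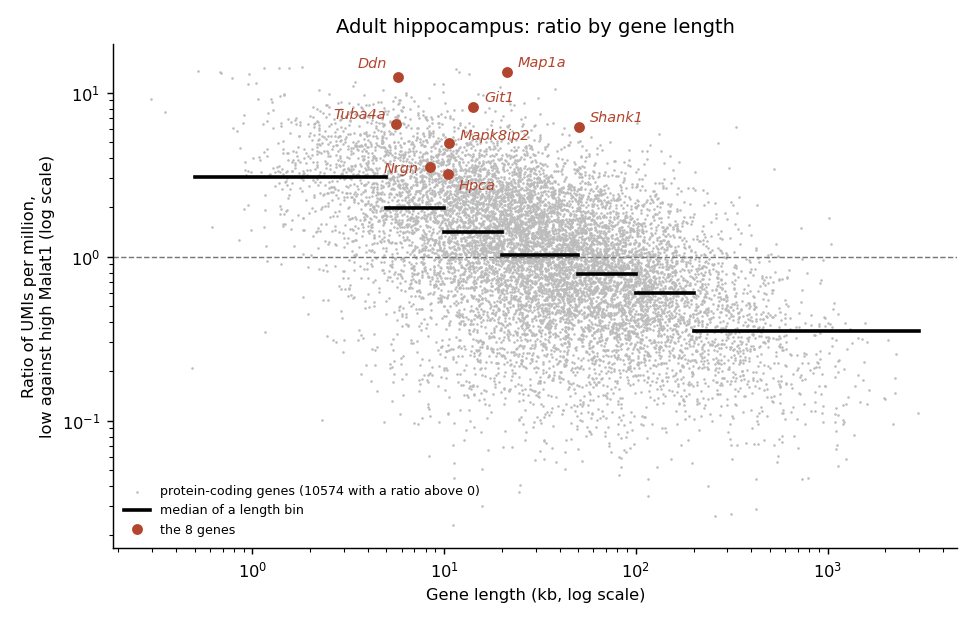
Ratio of CPM in adult barcodes under against at least 1.5% Malat1 (log scale) by gene length in kb (log scale) for protein-coding genes with at least 100 UMIs over both groups (grey), with the median of each length bin (black bars) and the 8 genes (red); genes with no UMI under the limit are not drawn. Bin medians fall from 3.07 under 5 kb to 0.352 at 200 kb or more, and the 8 genes lie between 3.20 and 13.3.

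The genes whose level across adult groups was most like that of the summed 8 were Arf3, Calm3, Cnih2, Jph3 and Fbxl16, with Pearson's r from 0.962 to 0.981 of log2(CPM + 10) over 14 groups. The groups share a library, and those under the limit share a low depth. For the 8 genes themselves, which are part of the sum, r ran from 0.80 for Ddn to 0.932 for Shank1.

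The E14 library repeats the contrast in brain tissue before most dendrites and synapses have formed, and the 8 genes were not selected on it. The same limit gave a weaker contrast in Malat1: the groups under it held 0.411% Malat1 in the adult and 0.972% in the E14 library, and Malat1's own ratio was 0.0722 in the adult and 0.267 in E14. Mitochondrial genes gave 0.337% of the E14 UMIs under the limit. The 8 genes summed to 226 CPM under the limit (205 to 248) and 208 above it (204 to 211), a ratio of 1.09 (0.986 to 1.20). Of the 6 genes with at least 100 UMIs over both groups, 0 were at least 2-fold higher, where 13.1% of 15790 genes were and the median ratio over all genes was 1.21. Map1a was at 1.85 (1.43 to 2.36), Git1 at 1.70 (1.24 to 2.29) and Mapk8ip2 at 1.36 (1.14 to 1.61). Shank1 was lower under the limit, at 84.1 CPM against 115 (ratio 0.734, 0.624 to 0.859). Nrgn, at 1.53 (0.648 to 3.08), and Hpca, at 1.23 (0.523 to 2.47), did not differ beyond counting error. In the same library 81 of 83 ribosomal protein genes and all 13 mitochondrially encoded genes were at least 2-fold higher under the limit, with medians of 2.73 and 2.72, and 19 of 20 long neuronal genes were at least 2-fold lower. Over all 15790 genes, 1557 were at least 2-fold lower.

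These E14 ratios moved with depth. In barcodes of 500 to 1500 UMIs, of which 648 lay under the limit and 858 above it, the summed ratio was 1.91 (1.56 to 2.35). Map1a was then at 3.64 (1.75 to 8.12), Git1 at 2.69 (1.23 to 6.22), Mapk8ip2 at 2.44 (1.66 to 3.61) and Shank1 at 1.39 (1.03 to 1.87). With a minimum of 1000 UMIs the summed ratio was 0.837 (0.739 to 0.944) and Shank1 was at 0.495 (0.396 to 0.611). E14 cluster 0, which was left unnamed and had a median of 736 UMIs, held 514 of the 1057 barcodes under the limit. It had 567 CPM of the 8 genes in these barcodes (501 to 640) and 308 in its 513 above it (263 to 358). Map1a had 87.8 and 16.5 CPM in these groups and Mapk8ip2 had 186 and 104.

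By class, E14 barcodes above the limit had Shank1 at 164 CPM in thalamic-like nuclei (150 to 178) and 43.0 in radial glia-like nuclei (37.5 to 49.0). Of the 1057 barcodes under the limit, radial glia-like clusters 7 and 9 held 152 and 132. The thalamic-like cluster held 9 of them and the cortical excitatory-like cluster 27. The part of this cell make-up in the E14 ratios was not tested. Nrgn was at 34.5 CPM in the 164 endothelial-like barcodes above the limit (27.5 to 42.7), from 83 UMIs, and at 7.33 or less in every other class or cluster above the limit.

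Over all kept barcodes, 7 of the 8 genes were at least 2-fold higher in the adult than in the E14 library, where 15.5% of 16727 genes were. Nothing is read from this count, since the genes were selected for higher levels in adult barcodes that are part of this contrast. Ddn and Tuba4a, with 9 and 43 UMIs in E14, also reached the minimum number of UMIs only through the adult library. The ratio was 771 for Ddn (405 to 1689), from 9 UMIs in E14, 151 for Nrgn (130 to 178), 77.7 for Tuba4a (57.2 to 108) and 50.0 for Hpca (43.3 to 57.9). Map1a was at 13.0 (12.2 to 13.9), Git1 at 2.66, Shank1 at 2.06 and Mapk8ip2, the gene under 2-fold, at 1.42 (1.32 to 1.52). Among barcodes above the limit in both libraries 6 of the 8 genes were at least 2-fold higher, where 15.4% of 16624 genes were. Nothing is read from this count either. Shank1 was there at 1.73 (1.66 to 1.81), and the summed ratio was 5.59 (5.46 to 5.72), beside 6.61 over all. Age, brain region, cell types, depth and Cell Ranger version differ between the libraries and cannot be told apart.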

How the data were processed

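The deposited values are UMI counts per gene and barcode, not normalized. Per the file headers, the authors made them with Cell Ranger 6.1.2 (adult) and 7.0.1 (E14). The methods name version 6.1.2 without setting the embryo apart, and give alignment to mm10 with introns. CellBender, which the methods name for the embryo, is not in the E14 header, so the matrix was read as Cell Ranger's own output. The analysis took barcodes of 500 UMIs or more whose mitochondrial share was below 5%, and split them at 1.5% Malat1. UMIs were summed per group and expressed per 1000000 of all UMIs of the group, with exact Poisson intervals, and ratios with exact conditional intervals. Counts of genes use those with at least 100 UMIs over both groups and a ratio of at least 2. Seurat 5.3.0 in R 4.3.3 (2000 variable genes without the 8 genes, 30 components, resolution 0.8) gave the clusters, named where at least 4 of 8 markers of a list were at least 2-fold higher and detected in 10% of barcodes. A cluster whose median was under the library's divided by 3 also needed a marker of its own, and no mitochondrial gene or marker of another list, among its 10 leading genes. Leading genes had to be detected in 25% of barcodes, a limit set after the clusters were seen. Scrublet (scanpy 1.11.5) marked 7 adult and 0 E14 barcodes as doublets at its own threshold and was judged not to have worked, so the 22 and 653 highest scores, the expected numbers, were left out as an alternative. Shares of barcodes were taken after thinning to 500 UMIs. Of 32285 genes, 32235 matched GENCODE vM21. The genes, marker lists and gene lists were chosen with earlier results of these data known. Genes named are those lists, the 10 largest ratios and the 5 genes most alike in pattern. Neurod6, C1ql2, Prox1, Tcf7l2, Slc17a6 and Camk2a by group were chosen after their values were seen. The ratio intervals were tested on simulated data: over 11984 genes of the adult contrast, 199 of them changed, they held the true ratio for 96.2%. The simulation drew Poisson counts from a pooled profile, so it checks the calculation only and does not cover differences among barcodes or classes. No column belonged to another sample (0).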

Additional observations from a re-analysis of the deposited data

Results flagged for a closer look

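Shank1 moved in opposite directions between barcodes under and above 1.5% Malat1 in the tissues, at a ratio of 6.16 in the adult library (5.65 to 6.71) and 0.734 in the E14 library (0.624 to 0.859). The difference between the libraries was not tested, since each tissue has 1 library. Cell make-up under the limit also differed. In E14, radial glia-like clusters 7 and 9 held 152 and 132 of the 1057 barcodes there, and their part in the Shank1 ratio was not tested. In E14 barcodes of 500 to 1500 UMIs the Shank1 ratio turned, to 1.39 (1.03 to 1.87).

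The 52 adult barcodes left out for at least 5% mitochondrial UMIs, which entered no comparison, had 649 UMIs of the 8 genes, or 9561 CPM (8839 to 10326), above the 3 counts that a 0 allows and at a median depth of 912.5 UMIs.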

How the results depend on the processing

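With 1 library per tissue no replicate could be left out. No paired analysis was possible because the tissues share no replicate and no result comes from a test. For the 8 genes summed, adult barcodes under against above the Malat1 limit gave 6.43, and 6.15 against neuron nuclei. These 2 ratios, in this order, were 3.12 and 2.96 with the limit at 2.5% Malat1, 5.26 and 4.85 with a mitochondrial limit of 1%, and 6.00 and 5.72 with a minimum of 1000 UMIs. They were 6.20 and 5.93 with Malat1 and mitochondrial UMIs left out of the denominator, and 7.85 and 7.26 as means over barcodes. In barcodes of 500 to 1500 UMIs they were 5.00 and 24.4, the last from 1 UMI in 3 nuclei. There 5 genes kept at least 100 UMIs, and all 5 were at least 2-fold higher, as were 62.5% of all 360 genes compared there. Nothing is read from that count, since selection and the minimum of 100 UMIs both favour it. The bins beside the limit gave 1.73 in place of 4.28, and the median over all genes compared turned from 0.889 to 2.30, with fewer genes tested. The astrocyte-like ratio of 5.73 was 4.88 with the 8 genes among the variable genes, 3.12 with 4000 variable genes and 12.3 in barcodes of 500 to 1500 UMIs, from 4 UMIs above the limit. The adult to E14 ratio of 6.61 was 6.35 with a minimum of 1000 UMIs, 11.1 as a mean over barcodes and 5.59 with at least 1.5% Malat1 in both.

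In E14 the summed ratio of 1.09 turned to 0.837 with a minimum of 1000 UMIs and to 0.922 with the limit at 2.5%, and was 1.58 with the limit at 1%, 1.48 as a mean over barcodes and 1.91 in barcodes of 500 to 1500 UMIs. Shank1 turned to 1.39 in the last. The depth range in E14 and within classes, and both depth settings for single genes in E14, were chosen after the data were seen. The thalamic-like class gave no value in that range, with 0 UMIs in 1 nucleus above the limit. The cause of these shifts was not tested. Depth limits them: 58 adult barcodes above the Malat1 limit were as shallow as most below it. Of 53 alternative values of the main results, 28 stayed within the counting error of the value reported or, for counts, within 1.5 times it. For single genes and lists, 30 of 44 stayed within 1.5 times the value reported, which can exceed counting error. Tuba4a is among the 30, at 9.28 in adult barcodes of 500 to 1500 UMIs beside 6.41 (5.36 to 7.61).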
